A study of Mus musculus with 46 samples.

Results

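The comparison described here set 5 zQ175 pools against 4 wild-type pools at 1 year, 9 of the 46 RNA-seq libraries in the series. All libraries whose column labels give the age of 1 year were taken, and none was left out. zQ175 mice are a knock-in model of Huntington disease in which an expanded CAG repeat lies in the animal's own Htt gene; the wild-type pools came from littermates of the same age. Every mouse, wild type included, carried an EGFP reporter of PDGFRA, and each library is RNA from EGFP-positive cells sorted from the pooled striata of several mice of one litter and genotype, with the subventricular zone cut away and myelin removed by density gradient before sorting. Replicates are thus pools of different mice, and their spread is that between litters and preparations. The zQ175 pools are numbered replicates 2 to 6 and the wild-type pools replicates 2 to 5. Zygosity, strain background and sex are not given in the sources used here. Pools of other mice serve for comparison: zQ175 and wild type at 12 weeks (12 libraries), and R6/2 mice, which express a short mutant huntingtin fragment from a transgene, with their wild type at 12 weeks (14 libraries).

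Glial progenitors marked by PDGFRA and the proteoglycan NG2 (gene Cspg4) divide slowly in the adult brain and can mature into oligodendrocytes. On the way they pass through a committed stage marked by genes such as Gpr17 and Bmp4, and then switch on the genes of the myelin sheath and of the lipids that fill it. Sterols made by the oligodendrocyte itself are a main constituent of that sheath. The series title names a response to TCF7L2, a transcription factor of this maturation step.

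Total expected counts in the 9 libraries ranged from 23338138 to 35458103, and 15452 to 20415 genes were detected. The pools of this age varied more than the others: the common coefficient of biological variation was 64.4% within the wild-type group and 53.7% within the zQ175 group, against 25.5 to 39.7% in the other 6 groups. Wild-type replicate 4 had the fewest genes detected and lay farthest out on the first principal component, and zQ175 replicate 5 lay farthest out on the second. The 50 most abundant genes took 27.6 ± 2.25% of counts in zQ175 (SD, n = 5) and 32.4 ± 2.46% in wild type (SD, n = 4), with p = 0.0238 in a two-sided exact permutation test (adjusted p = 0.0952 over 4 library measures; the smallest p possible is 0.0159). The other 3 measures, total counts, genes detected and mitochondrial share, had p of 0.262 to 0.738 in the same exact test. TMM scaling levels the bulk of genes between libraries; with total counts alone as the scale the median log2 fold change of all genes moved from 0.02 to 0.18. Levels below are in CPM, a gene's counts relative to the TMM-scaled total of its library, unless the total scale is named.

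**Figure D1:**
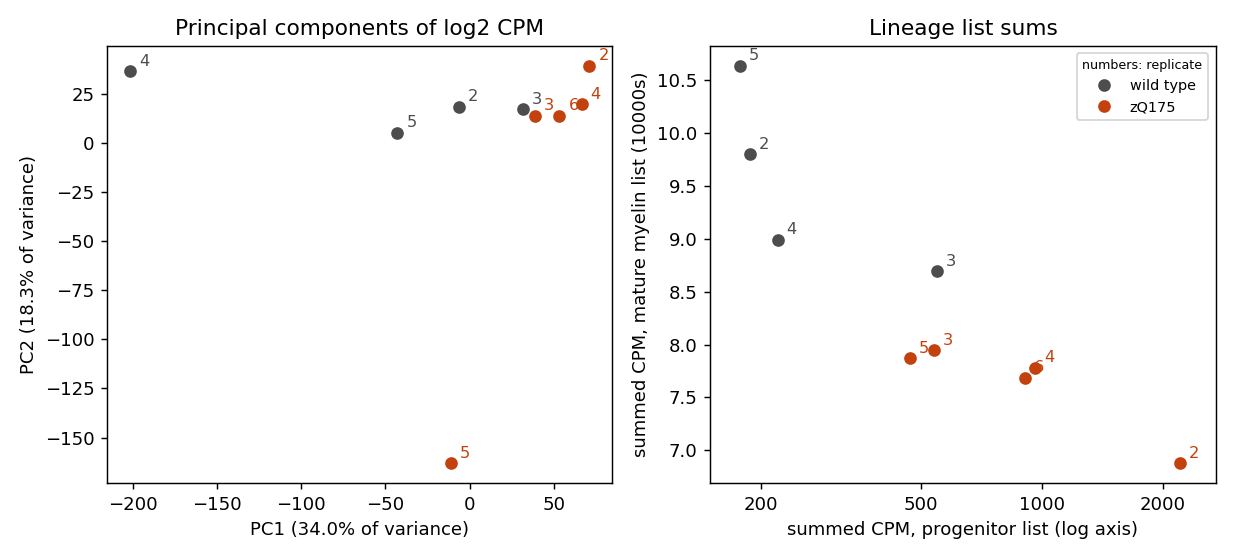
Left, the 9 pools on the first (34.0% of variance) and second (18.3%) principal components of log2 CPM. Right, the summed CPM of the progenitor list (log axis) against that of the mature myelin list; numbers are replicates, grey is wild type and orange zQ175. Wild-type replicate 4 and zQ175 replicate 5 stand apart on the left, and zQ175 replicate 2 holds the most progenitor and the least myelin RNA on the right.

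The label of progenitor cells met a mixed picture in the marker genes. On the scale of totals, Pdgfra itself lay between 0.294 and 14.7 in the wild-type pools and between 4.69 and 102 in the zQ175 pools, while Mbp, which encodes myelin basic protein, lay between 6820 and 10790 and between 5295 and 8584. The 22 progenitor genes together reached 168 to 549 CPM on that scale in wild type and 462 to 2445 in zQ175. The 24 mature myelin genes reached 78310 to 100800 and 76480 to 89720. In the R6/2 line at 12 weeks Pdgfra was at 42.4 to 99.9 CPM in wild-type pools, so that the 1-year wild-type pools held less of the sorted marker's transcript than those did. Littermate controls of zQ175 mice had, at 12 weeks, 0.397 to 23.9 CPM, all below those of the R6/2 line at the same age; line and any batch cannot be told apart in that contrast. The pools are accordingly called EGFP-sorted cells here. In bulk RNA, a change in the share of a cell type and a change in RNA per cell cannot be told apart.

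Mouse Htt (ENSMUSG00000029104, chromosome 5, 34761740 to 34912534, GRCm38), the altered gene, was measured at 8.51, 8.25, 22.4 and 14.5 CPM in wild-type replicates 2 to 5. It was measured at 3.86, 1.59, 5.21, 13.4 and 2.57 CPM in zQ175 replicates 2 to 6. Of the 5 zQ175 pools, 4 lay below every wild-type pool, and the library labelled zQ175 replicate 5 lay inside the wild-type range. The log2 fold change was -1.33 ± 0.56 (SE) and did not pass edgeR's quasi-likelihood test (adjusted p = 0.393); without that library it was -2.02 (adjusted p = 0.119). Of 14 tested genes in a list of Htt and its neighbours, 10 had a negative fold change, where 48.4% of all genes did. Pools did not overlap for 1 lower member (2.04% of all genes) and 2 higher members (2.93%). Add1, which encodes the cytoskeletal protein adducin, was at 379 to 575 CPM in wild type and 281 to 377 in zQ175 (log2 fold change -0.49 ± 0.14, adjusted p = 0.199). Nop14, a ribosome assembly factor, was at 13.8 to 18.4 and 19.4 to 22.8 CPM (log2 fold change 0.44 ± 0.20, adjusted p = 0.421), and Dok7 was at 0.0984 to 8.08 and 8.12 to 12.1 CPM. On the scale of totals Nop14 was the only one of the 14 without overlap.

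The question of this comparison is which transcripts differ between zQ175 and wild-type mice late in the slowly progressing model. Of 14951 genes tested, 1 passed at a Benjamini-Hochberg adjusted p below 0.05 (0.00669%), and it was lower in zQ175. At an adjusted p below 0.1 there were 13 genes (0.087%), 7 higher (0.0468%) and 6 lower (0.0401%). At an unadjusted p below 0.05 there were 1706 (11.4%), with 909 genes higher (6.08%) and 797 lower (5.33%). The pools of the 2 groups did not overlap for 438 genes that were higher in zQ175 (2.93%) and 305 that were lower (2.04%); with totals alone as scale these were 713 and 141. The count of calls moved with the model: DESeq2 called 398 genes (253 higher and 145 lower), limma voom 6, and edgeR with all 8 groups sharing 1 estimate of spread 1718. Without wild-type replicate 3 the 2-group fit called 233 genes (173 higher and 60 lower), and without any other single pool it called 0, with 1269 to 1857 at an unadjusted p below 0.05.

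The gene that passed was Gm42756 (ENSMUSG00000104674), annotated as antisense, on chromosome 9 from 109537100 to 109552780, on the strand opposite to the protein-coding gene Fbxw15. The wild-type pools had 99.6, 81.2, 107 and 137 CPM, and the zQ175 pools 36.1, 49.2, 44.4, 36.2 and 44.0 CPM. Every zQ175 pool lay below every wild-type pool, and Gm42756 fell by 1.34 ± 0.17 (SE) on the log2 scale (adjusted p = 0.039). The counts carry no strand, so reads of Fbxw15 (log2 fold change -1.45, adjusted p = 0.599) and of the antisense gene cannot be told apart. Gm42756 was also called by DESeq2, by both voom fits, under both other composition scalings and without wild-type replicate 3; it was not called without any other single pool, where its adjusted p reached 0.18. It was also not called with total counts as the scale (adjusted p = 0.0892), without robust fitting (0.0554), with the replicate block (0.228), without zQ175 replicate 5 and wild-type replicate 4 (0.163), with the Y-linked covariate (0.097) or with that of other cell types' markers (0.593). Its log2 fold change was -1.17 or lower under all of these.

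The 12 genes of smallest p among those higher in zQ175 did not pass the test. All had pools that did not overlap, where 2.93% of all genes were apart in that direction. Choosing genes by p in these same pools favours such separation, so it is no separate support. Mfsd2a, a transporter that carries lysophospholipids with omega-3 fatty acids into cells, was measured at 29.6, 41.4, 26.2 and 23.3 CPM in wild type. In zQ175 it was measured at 76.2, 66.9, 87.4, 79.2 and 69.9 CPM, and each of these exceeded the highest wild-type pool (log2 fold change 1.33 ± 0.18, adjusted p = 0.0505). Eno1, the glycolytic enolase, was at 292 to 420 CPM in wild type and 524 to 617 in zQ175 (log2 fold change 0.74 ± 0.13, adjusted p = 0.0953). Cav1, the main protein of caveolae, was at 26.1 to 39.6 and 57.1 to 71.7 CPM (adjusted p = 0.103).

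Cntn6, an adhesion molecule of the contactin family, was at 0.00 to 0.43 CPM in wild type and 1.37 to 11.1 CPM in zQ175 (adjusted p = 0.0953). Cadm2, a synaptic adhesion molecule, was at 49.8 to 79.5 and 92.8 to 141 CPM (adjusted p = 0.103). Nrarp, a target and feedback inhibitor of Notch signalling, was at 3.01 to 6.08 and 10.3 to 26.6 CPM (adjusted p = 0.108). The orphan receptor gene Gpr85 was at 9.13 to 15.3 and 23.3 to 41.4 CPM. The others were Cpq, which encodes a carboxypeptidase, Luzp2, Fam69b, Tmem47 and Oat, the ornithine aminotransferase, with log2 fold changes of 0.77 to 2.11.

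The 11 genes of smallest p among those lower in zQ175 also did not pass the test. Their choice by p likewise favoured pools without overlap, where 2.04% of all genes were apart as lower. Tppp, which bundles microtubules in oligodendrocytes, was at 404, 353, 418 and 511 CPM in wild type. It was at 258, 210, 273, 233 and 228 CPM in zQ175, with no overlap between groups (log2 fold change -0.81 ± 0.13, adjusted p = 0.0838). Smtn, which encodes the actin-binding protein smoothelin, was at 53.7 to 84.1 CPM in wild type and 27.1 to 37.4 CPM in zQ175 (log2 fold change -1.22 ± 0.18, adjusted p = 0.0505). Tmod2, which caps actin filaments, overlapped between groups by a narrow margin, with wild-type replicate 3 at 424 CPM and zQ175 replicate 5 at 425 CPM.

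Il33, an alarmin stored in oligodendrocyte nuclei, was at 1800, 1280, 1346 and 1927 CPM in wild type. In zQ175 it was at 652, 780, 921, 976 and 986 CPM (log2 fold change -0.88 ± 0.17, adjusted p = 0.103). All zQ175 pools were below all wild-type pools. Fam83d, a protein of the mitotic spindle, was at 27.2 to 59.3 and 7.78 to 16.5 CPM (adjusted p = 0.0838). Dusp10, a phosphatase of stress-activated kinases, was at 89.8 to 122 and 49.9 to 66.2 CPM. Rcan2, a regulator of calcineurin whose pools overlapped through wild-type replicate 3, Tex2, Mobp and the antisense genes Gm48678 and A330015K06Rik made up the rest, with log2 fold changes of -1.66 to -0.87; the last pair lie over Itsn2 and Kcnab1, whose reads cannot be separated from theirs.

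**Figure D2:**
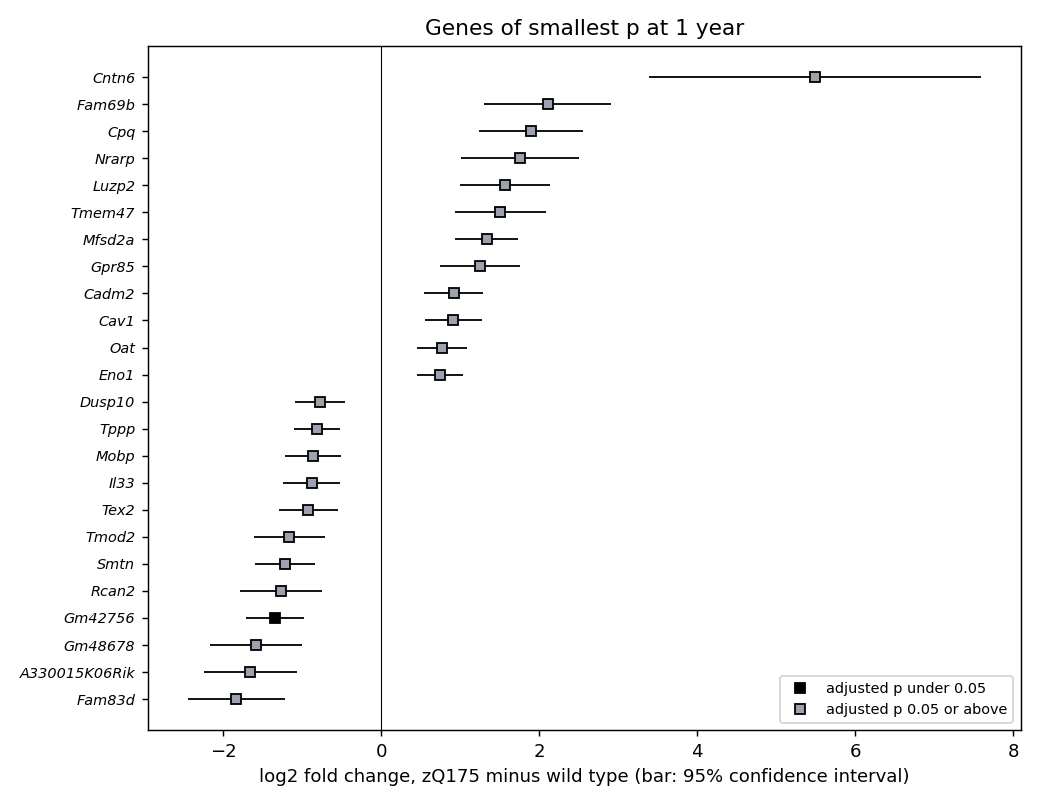
Log2 fold change (zQ175 minus wild type) with its 95% confidence interval for the 24 genes named for their p value at 1 year. Only Gm42756, drawn in black, had an adjusted p below 0.05; Cntn6, at 0.00 to 0.43 CPM in wild type, has the widest interval.

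Progenitor genes were higher in zQ175 in direction, and none of the 22 passed the test over all genes. All 22 had a positive fold change, where 51.6% of all genes did. Of the 22, 15 had an unadjusted p below 0.05, against 6.08% of all genes for that direction, with a median log2 fold change of 2.03 over the 22, against 0.02 over all genes. The pools of 4 members did not overlap, where 2.93% of all genes were apart in that direction: Bcan, Sox5, Lhfpl3 and Pcdh15.

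Pdgfra (chromosome 5, 75152292 to 75198215) was at 2.01, 14.7, 0.836 and 0.310 CPM in wild-type replicates 2 to 5. In zQ175 it was at 91.5, 4.79, 12.5, 15.8 and 19.5 CPM. Replicate 3 was the highest wild-type pool and exceeded 2 of the 5 zQ175 pools, and zQ175 replicate 2 was far above the other 4. The log2 fold change was 2.67 ± 1.18 (adjusted p = 0.434), and it ranged from 1.55 to 4.78 when single pools were left out.

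Bcan, which encodes the matrix proteoglycan brevican, was at 34.6, 103, 26.8 and 32.1 CPM in wild type. It was at 283, 114, 173, 108 and 180 CPM in zQ175 (log2 fold change 1.80 ± 0.41, adjusted p = 0.124). Here the lowest zQ175 pool was just above wild-type replicate 3. Sox5, a transcription factor of early lineage cells, showed a wider gap, at 1.53 to 2.57 CPM in wild type and 4.73 to 15 CPM in zQ175 (log2 fold change 2.06 ± 0.48, adjusted p = 0.124).

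The receptor phosphatase gene Ptprz1 was at 9.24 to 41.5 CPM in wild type and 22.97 to 298 CPM in zQ175 (log2 fold change 2.09 ± 0.80, adjusted p = 0.369). Cspg4 was at 3.97 to 29.8 and 5.36 to 119 CPM (log2 fold change 1.75 ± 0.94, adjusted p = 0.538). For both, wild-type replicate 3 held the upper end of its group and zQ175 replicate 2 that of the other. Summed over the list, progenitor RNA was 188, 549, 221 and 177 CPM in wild-type replicates 2 to 5. It was 2199, 540, 961, 470 and 909 CPM in zQ175 replicates 2 to 6, so that wild-type replicate 3 exceeded zQ175 replicates 3 and 5.

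The calls for progenitor genes depended on the model and on single pools. DESeq2 called 9 of the 22 as higher, the fit of all 8 groups 16, and the fit without wild-type replicate 3 called 7. Over all genes these fits called 253 of 14951, 892 of 18157 and 173 of 15389 as higher. The list median was 1.38 to 2.56 over the fits that left out 1 pool. With the first component of other cell types' markers as a covariate the median was 0.32 and Pdgfra's fold change changed sign (-0.06).

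**Figure D3:**
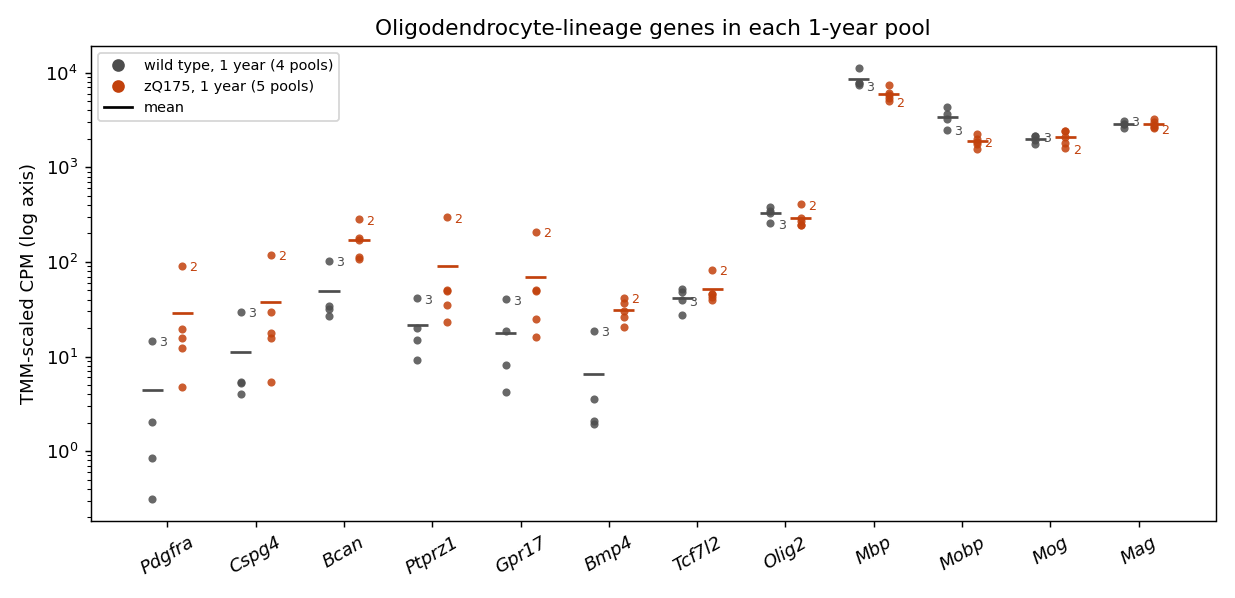
TMM-scaled CPM (log axis) of 12 lineage genes in each 1-year pool, wild type in grey (n = 4) and zQ175 in orange (n = 5), with the mean as a bar; wild-type replicate 3 and zQ175 replicate 2 are numbered. These 2 pools hold the top values of their groups for Pdgfra, Cspg4, Bcan, Ptprz1, Gpr17 and Bmp4. Of the genes shown, Bcan and Bmp4 (higher in zQ175) and Mobp (lower) do not overlap between groups.

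Committed and premyelinating genes leaned the same way. Of 19 that could be tested, 15 had a positive fold change, 8 had an unadjusted p below 0.05 in that direction (6.08% of all genes) and 0 in the other, and 0 were called; the median log2 fold change was 0.68. Bmp4, a secreted signal made by committed cells, was at 3.56, 18.8, 2.07 and 1.93 CPM in wild type. It was at 41.6, 30.6, 37.2, 20.8 and 26.4 CPM in zQ175, and the groups did not overlap (log2 fold change 2.24 ± 0.61, adjusted p = 0.178).

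Enpp6, a choline phosphodiesterase that marks newly formed oligodendrocytes, was at 13.9, 100, 7.92 and 9.93 CPM in wild type. In zQ175 it was at 183, 153, 188, 145 and 184 CPM (log2 fold change 2.37 ± 0.73, adjusted p = 0.249). Its zQ175 pools were close to one another and all above wild-type replicate 3, the highest of its group. The sialidase gene Neu4 and Itpr2, an internal calcium channel, also did not overlap. In all, 4 of the 19 were apart as higher, against 2.93% of all genes. On the scale of totals 3 were, Bmp4, Enpp6 and Neu4, against 4.77% of all genes, and Itpr2 overlapped. Gpr17, a receptor that holds cells at the committed stage, did overlap, at 4.18 to 40.2 and 16.2 to 209 CPM (adjusted p = 0.427).

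Tcf7l2, the factor of the series title, was at 27.7, 39.3, 48.6 and 51.9 CPM in wild type. It was at 83.1, 46.0, 42.4, 45.9 and 39.9 CPM in zQ175, where all pools but replicate 2 lay inside the wild-type range. The log2 fold change was 0.30 ± 0.25, with a 95% confidence interval of -0.24 to 0.83 (adjusted p = 0.721). Bcas1, a marker of cells that begin to myelinate, had the lowest log2 fold change of the committed genes (-0.47).

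Mature myelin genes were lower in direction in zQ175. Of 24, 18 had a negative fold change, where 48.4% of all genes did, and 0 passed the test over all genes. At an unadjusted p below 0.05, 9 of 24 were lower, against 5.33% of all genes for that direction, and 1 was higher. The median log2 fold change was -0.28. With totals alone as scale it was -0.11 where that of all genes was 0.18.

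Mobp, a small basic protein of compact myelin (chromosome 9, 120149707 to 120181484), was at 3250, 2514, 3629 and 4367 CPM in wild type. In zQ175 it was at 1863, 1567, 1755, 1974 and 2272 CPM, with no overlap (log2 fold change -0.87 ± 0.16, adjusted p = 0.103). Mal, a raft protein that sorts myelin proteins, was at 5198 to 8153 and 3161 to 5180 CPM (log2 fold change -0.79 ± 0.17, adjusted p = 0.111). Its highest zQ175 pool, replicate 5, was just under wild-type replicate 3.

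Mbp, the myelin basic protein gene, was at 7388 to 11380 and 5015 to 7444 CPM, where a single zQ175 pool, replicate 4, exceeded the lowest wild-type pool (log2 fold change -0.53 ± 0.16, adjusted p = 0.224). The tetraspanin gene Tspan2, the link protein gene Hapln2 and Ppp1r14a did not overlap between groups. In all, 6 of the 24 were apart as lower (2.04% of all genes) and 1 as higher (2.93%). On the scale of totals Mobp, Mal, Tspan2 and Hapln2 remained apart and Ppp1r14a did not. On that scale 4 of the 24 were apart as lower (0.943% of all genes) and 2, Gjb1 and Klk6, as higher (4.77%).

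Other myelin genes had fold changes near 0. Mog was at 2147, 2139, 1785 and 1933 CPM in wild type and 1597, 2429, 1804, 2110 and 2451 CPM in zQ175, a log2 fold change of 0.05 with a 95% confidence interval of -0.26 to 0.37. Mag was at 2616 to 3115 and 2587 to 3227 CPM, a log2 fold change of -0.01 with an interval of -0.26 to 0.25; with RLE scaling or totals its sign was positive (0.00 and 0.16). Of the 24, 6 had a positive fold change. The protease gene Klk6 had the highest, at 0.00 to 10.6 CPM in wild type and 11.8 to 22.4 in zQ175 (log2 fold change 1.85 ± 0.80, adjusted p = 0.409).

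Summed over the 24 genes, myelin RNA was 86910 to 106310 CPM in wild type and 68780 to 79473 CPM in zQ175, with no overlap. On the scale of totals the sums did overlap, at 78310 to 100800 and 76480 to 89720 CPM. DESeq2 called 6 of the 24 as lower, the fit of all 8 groups 9 lower and 1 higher, and the fit without wild-type replicate 3 called 4 lower. Over all genes these fits called 145 of 14951, 826 of 18157 and 60 of 15389 as lower, and the fit of all 8 groups 892 as higher.

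**Figure D4:**
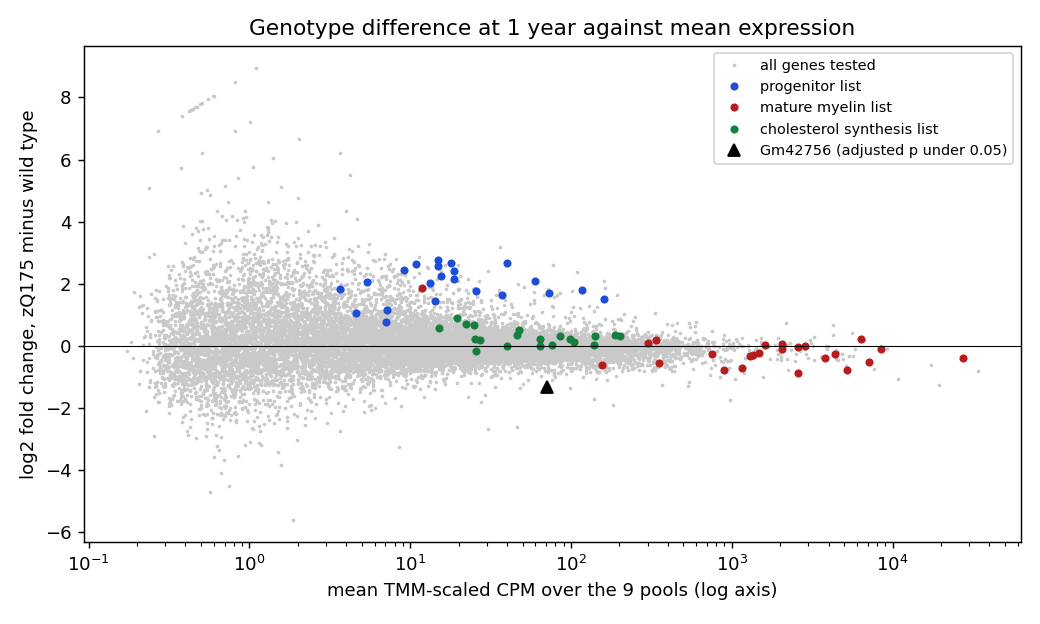
Log2 fold change (zQ175 minus wild type) against mean CPM over the 9 pools (log axis) for the 14951 genes tested, with the progenitor, mature myelin and cholesterol synthesis lists coloured. The progenitor genes all lie above 0, while 18 of 24 myelin genes lie below it at far higher levels; the triangle is Gm42756.

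Among 19 regulators of the lineage, 11 had a positive and 8 a negative fold change and 0 were called. Myrf, the factor that drives myelin gene expression, was at 384, 422, 551 and 510 CPM in wild type. It was at 408, 233, 268, 393 and 278 CPM in zQ175 (log2 fold change -0.56 ± 0.18, adjusted p = 0.246), and the groups overlapped through zQ175 replicates 2 and 5. Hes1, a repressor downstream of Notch, was at 1.96 to 5.87 and 7.35 to 15.6 CPM with no overlap (log2 fold change 1.51 ± 0.41, adjusted p = 0.178).

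Sox10 and Olig2, which mark the whole lineage, overlapped between groups. Sox10 was at 638 to 668 CPM in wild type and 444 to 700 CPM in zQ175, a log2 fold change of -0.23 with an interval of -0.53 to 0.07. Olig2 was at 257 to 380 and 246 to 408 CPM (log2 fold change -0.17 ± 0.17); on the scale of totals it was 0.01. Nkx2-2 had a log2 fold change of 0.00 ± 0.18, and its sign changed in several alternative fits.

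Of 17 Wnt pathway genes tested, 11 had a negative fold change and 0 were called. Daam2, which promotes Wnt signalling in the lineage, was at 85.7 to 170 CPM in wild type and 61.0 to 104 in zQ175 (adjusted p = 0.25). The inhibitor gene Nkd1 was at 82.9 to 138 and 49.8 to 103 CPM (adjusted p = 0.403). The list median was -0.20, and on the scale of totals -0.05 against 0.18 for all genes.

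Genes of cholesterol synthesis were slightly higher in direction, with 18 of 20 positive, 4 at an unadjusted p below 0.05, 0 called and a median log2 fold change of 0.26. Those 4 were all higher, where 6.08% of all genes were higher at that level. Sqle, the squalene epoxidase, was at 44.0, 51.8, 31.8 and 27.4 CPM in wild type. In zQ175 it was at 50.6, 48.0, 67.8, 52.8 and 54.8 CPM (log2 fold change 0.50 ± 0.20, adjusted p = 0.369). The groups overlapped through wild-type replicate 3.

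Several enzymes of the same pathway had fold changes near 0. Cyp51, the sterol demethylase, had a log2 fold change of 0.00 with a 95% confidence interval of -0.37 to 0.37, and Dhcr7 one of 0.01 with an interval of -0.33 to 0.36. Hmgcs1 was at 63.7 to 113 and 93.6 to 121 CPM (log2 fold change 0.22 ± 0.18).

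Enzymes of other myelin lipids leaned the other way. Fa2h, which hydroxylates the fatty acids of galactolipids, was at 652 to 841 CPM in wild type and 516 to 647 CPM in zQ175 with no overlap (log2 fold change -0.30 ± 0.12, adjusted p = 0.369). Ugt8a, which adds the galactose, was at 458 to 592 and 393 to 514 CPM (log2 fold change -0.25 ± 0.13, adjusted p = 0.5). Fa2h was the only sphingolipid enzyme apart as lower (1 of 11, against 2.04% of all genes). On the scale of totals 0 of the 11 were apart as lower (0.943% of all genes) and 1, Gal3st1, as higher (4.77%). Of 11 sphingolipid enzymes 9 had a negative fold change, with a median of -0.10, and of 17 fatty acid enzymes 13 did, with a median of -0.09; with total counts as the scale these medians were 0.08 and 0.07, against 0.18 for all genes. Scd2, the abundant fatty acid desaturase, was at 4588 to 6064 and 3085 to 5061 CPM (log2 fold change -0.48 ± 0.16, adjusted p = 0.275). In the 3 lists of sphingolipid, fatty acid and sterol regulation genes (11, 17 and 18 tested) 0 members were called. At an unadjusted p below 0.05, 4 were higher and 5 lower, Insig1 and Srebf1 among the lower. Over all genes, 6.08% were higher and 5.33% lower at that level.

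Interferon-stimulated genes were higher in direction but scattered, with 13 of 16 tested positive, 4 at an unadjusted p below 0.05, 0 called and a median log2 fold change of 1.01. Those 4 were all higher, where 6.08% of all genes were higher at that level. Usp18, which dampens the interferon receptor, was at 1.58, 4.15, 0.148 and 1.02 CPM in wild type. It was at 0.0368, 7.58, 11.2, 16.8 and 7.79 CPM in zQ175 (log2 fold change 2.31 ± 1.07, adjusted p = 0.437). zQ175 replicate 2 was the lowest of all 9 pools and the other 4 zQ175 pools were above all wild-type pools. Irf9, a subunit of the interferon transcription factor, was at 0.466 to 8.51 and 1.43 to 16.97 CPM (adjusted p = 0.415), with wild-type replicate 3 and zQ175 replicate 2 again at the overlapping ends. Ifit1 had wild-type replicate 3 highest and zQ175 replicate 2 lowest in their groups, at 0.00 to 7.82 and 2.90 to 17.7 CPM (adjusted p = 0.538).

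Genes reported in oligodendrocytes under disease split in direction. Serpina3n, a protease inhibitor induced in reactive glia, was at 5.97, 55.3, 7.53 and 9.06 CPM in wild type. It was at 22.8, 61.7, 67.1, 69.4 and 50.3 CPM in zQ175 (log2 fold change 1.47 ± 0.65, adjusted p = 0.429), where wild-type replicate 3 exceeded 2 zQ175 pools. The complement gene C4b was at 73.3 to 121 and 110 to 178 CPM (adjusted p = 0.474). The kinase gene Sgk1 was at 833 to 2424 CPM in wild type and 98.9 to 1125 in zQ175 (log2 fold change -1.74 ± 0.62, adjusted p = 0.335). Of the 15 genes, 10 were positive and 5 negative, Il33 among the latter, and 0 were called.

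Potassium channels set the resting potential of lineage cells. The channel genes Kcna1, Kcna2, Kcna6 and the subunit gene Kcnab1 were lower at an unadjusted p below 0.05. They were 4 of 16 potassium channel genes tested, where 5.33% of all genes were lower at that level. Kcna6 was at 227, 192, 254 and 261 CPM in wild type and 148, 138, 117, 174 and 137 CPM in zQ175, with no overlap (log2 fold change -0.71 ± 0.14, adjusted p = 0.108). At that level 6 of 16 were higher, against 6.08% of all genes, among them Kcnd2 at 0.00 to 9.11 and 6.50 to 22.4 CPM (adjusted p = 0.417). Kcnj10, the inward rectifier of oligodendrocytes and astrocytes, was at 171 to 393 and 148 to 301 CPM (log2 fold change -0.40 ± 0.24, adjusted p = 0.582).

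Of 15 glutamate and GABA receptor genes tested, 4 were higher and 1 lower at an unadjusted p below 0.05, and 0 were called. Over all genes, 6.08% were higher and 5.33% lower at that level. Grm3, a metabotropic glutamate receptor, was at 234, 145, 186 and 220 CPM in wild type and 88.9, 110, 94.2, 140 and 115 CPM in zQ175, with no overlap (log2 fold change -0.84 ± 0.17, adjusted p = 0.108). Gabrg1, a GABA receptor subunit, was at 4.41 to 10.02 and 10.55 to 13.6 CPM with no overlap (log2 fold change 0.71 ± 0.31, adjusted p = 0.403). Grik1, a kainate receptor subunit, was at 0.341 to 1.28 and 1.39 to 5.15 CPM, also with no overlap (log2 fold change 2.01 ± 0.77, adjusted p = 0.353). Gria2, an AMPA receptor subunit, was at 6.99 to 19.9 and 9.20 to 72.5 CPM (adjusted p = 0.327). Of 27 matrix and adhesion genes tested 5 were higher and 2 lower at that level; Cntn1, an adhesion molecule of axons and progenitors, was at 51.3 to 135 and 130 to 272 CPM (adjusted p = 0.167).

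Markers of other cell types were present in all pools, and their part in the results was not tested. The covariate fit drew its component from the same pools and from markers such as Stmn1, so it cannot separate other cells from the lineage. Microglial markers summed to 209 to 390 CPM in wild type and 102 to 279 CPM in zQ175. A negative fold change was seen in 15 of 16 tested, and 6 were lower at an unadjusted p below 0.05, against 5.33% of all genes. The defining markers were above 0 in most pools (4 of 17 at 0 in zQ175 replicate 2). Endothelial markers summed to 66.7 to 154 and 28.9 to 92.0 CPM, and mural markers to 94.3 to 229 and 127 to 293 CPM. Astrocyte markers summed to 656 to 802 and 732 to 958 CPM, with 8 of 16 positive; these sums exceeded the progenitor sum of every wild-type pool. Neuroblast markers summed to 2156 to 3146 and 1937 to 3404 CPM, of which Stmn1, a tubulin-binding protein gene not limited to neuroblasts, made up most (mean of 2618 in wild type and 2479 in zQ175), while Dcx, the defining marker, had means of 0.60 and 4.02 CPM. Fibroblast markers summed to 231 to 709 and 176 to 942 CPM, with 8 of 13 positive. Of 15 markers of striatal projection neurons 9 could be tested, with sums of 92.8 to 109 and 72.7 to 112 CPM; Drd2 had 0 counts in all 9 pools. Fold changes of the 9 were positive for 6 and negative for 3, with a median of 1.39 on the log2 scale. Neuroblast markers had 4 positive and 2 negative (median 0.66), and neuronal markers 7 and 2 (median 0.68). Neuronal markers summed to 105 to 200 and 170 to 265 CPM, red blood cell markers to 92.9 to 445 and 165 to 338 CPM, and 1 of 12 lymphocyte markers could be tested.

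Of the other lists, all 13 mitochondrial mRNAs had a negative fold change with a median of -0.43 (-0.27 on the scale of totals, where all genes were at 0.18), and their sums overlapped, at 25432 to 40477 and 12983 to 29469 CPM. Of 15 cell cycle genes 7 could be tested; 0 had an unadjusted p below 0.05, and Mki67 had 0 counts in all 9 pools. Stress response and immediate early genes had medians of 0.01 and 0.09. In all of the lists together, as in each, 0 members were called by the 2-group edgeR fit.

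**Figure D5:**
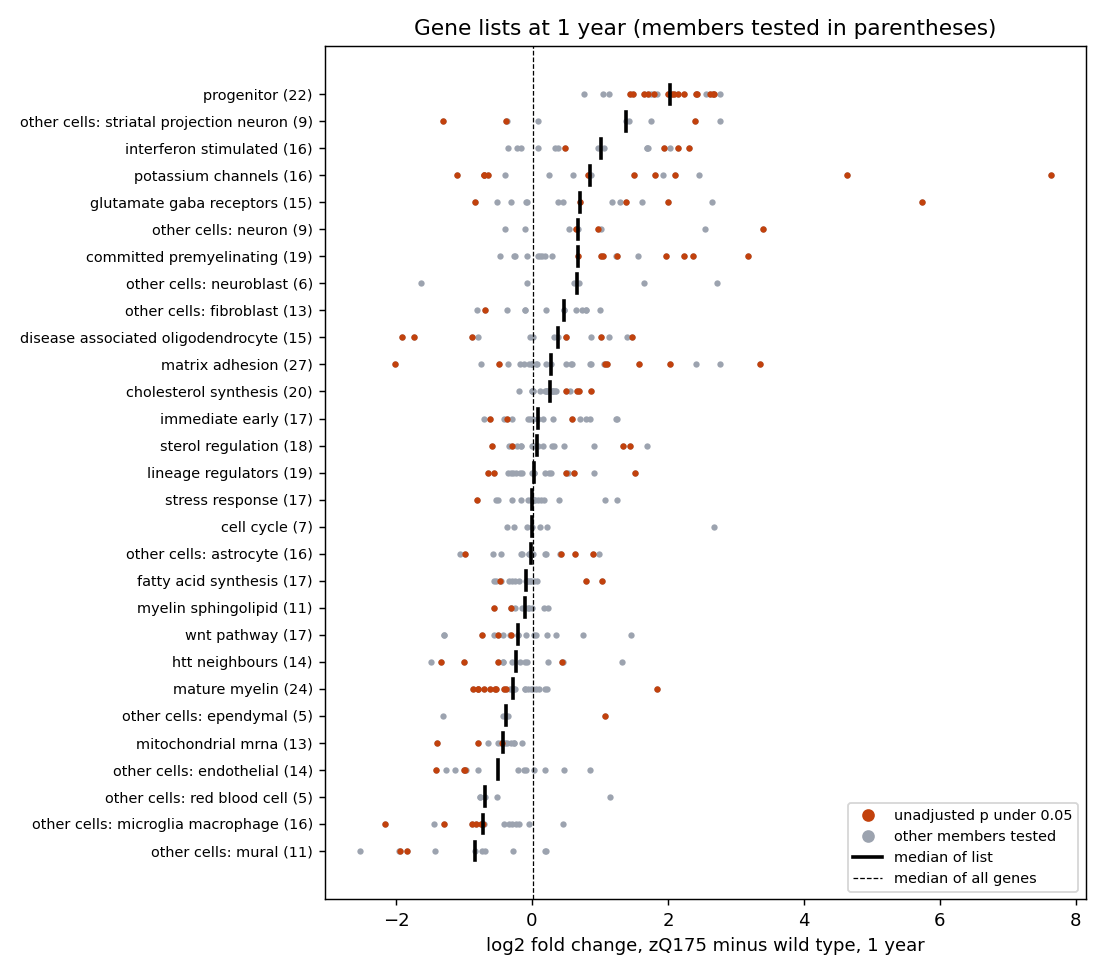
Log2 fold change (zQ175 minus wild type) of each tested member of the gene lists at 1 year, orange where the unadjusted p was below 0.05; the bar is the list's median and the dashed line that of all genes (0.02). Among lists with more than 2 members tested, the progenitor list has the highest median (2.03), and the mural (-0.84) and microglial (-0.72) marker lists have the lowest.

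Whether the difference at 1 year departs from that at 12 weeks in the same line was tested as an interaction in pools of different mice. Pools held 4 to 8 mice at 1 year and 3 to 4 at 12 weeks, so age, pool size and any batch cannot be told apart. The fit shares 1 estimate of spread per gene over both ages. The coefficient of variation was 64.4% (wild type) and 53.7% (zQ175) at 1 year, against 29.4% and 34.8% at 12 weeks. Of 16535 genes, 41 passed (0.248%), 12 with a more positive (0.0726%) and 29 with a more negative difference at 1 year (0.175%). At an unadjusted p below 0.05 there were 2083 (12.6%), 1051 more positive (6.36%) and 1032 more negative (6.24%). The 12-week comparison on its own called 12 of 14372 genes (0.0835%), 7 higher (0.0487%) and 5 lower (0.0348%), with 2143 (14.9%) at an unadjusted p below 0.05, of which 974 were higher (6.78%) and 1169 lower (8.13%). The more positive ones held Luzp2, with a log2 fold change of 1.57 at 1 year and 0.08 at 12 weeks (difference 1.47 ± 0.28, adjusted p = 0.045). Gpr85 had 1.25 and 0.14 (difference 1.07 ± 0.23, adjusted p = 0.0453), and Map1b, a microtubule-associated protein, 0.90 and -0.29 (difference 1.16 ± 0.25, adjusted p = 0.0453). Gm42756 had -1.34 and 0.01 (difference -1.38 ± 0.27, adjusted p = 0.045), and Ehd2, a membrane ATPase of caveolae, -1.67 and 1.12 (difference -2.83 ± 0.54, adjusted p = 0.045).

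Among the listed genes only Hapln2 passed the interaction (difference -0.75 ± 0.16, adjusted p = 0.0453). The progenitor list had a median log2 fold change of -0.22 at 12 weeks against 2.03 at 1 year, and 0 of its 22 members passed the interaction. Mature myelin genes had medians of -0.10 and -0.28, and cholesterol genes of -0.10 and 0.26. The count of 41 was 353 without wild-type replicate 3, 110 without zQ175 replicate 5 and 13 on the scale of totals (8 more positive and 5 more negative). It was 0 without zQ175 replicate 6, wild-type replicate 2 or wild-type replicate 4, with 2097, 2403 and 1848 genes at an unadjusted p below 0.05.

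Of the 29 genes with a more negative difference at 1 year, 18 encode proteins of the cytosolic ribosome. This group was named after these values were seen and is therefore described without a test. The interaction tested 80 such genes, so that 18 of 80 passed as more negative, against 0.175% of all genes. Among 80 such genes tested at 1 year, 79 had a negative log2 fold change, with a median of -0.46, and 60 had an unadjusted p below 0.05 in that direction; 0 were called. That share compares with 5.33% of all genes. At 12 weeks 79 of 80 were positive, with a median of 0.30, and 1 was called as higher. On the scale of totals the median at 1 year was -0.29, where that of all genes was 0.18, and 77 of 80 were negative. On that scale 32 of 80 had an unadjusted p below 0.05 as lower. The interaction there called 5 of the 80 as more negative in place of 18, and 5 of 16535 over all genes.

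Rps12, a protein of the small subunit, was at 90.9 ± 23.1 CPM in wild type (SD, n = 4) and 51.2 ± 14.0 CPM in zQ175 (SD, n = 5), a log2 fold change of -0.83 at 1 year against 0.50 at 12 weeks. The difference was -1.37 ± 0.25 (adjusted p = 0.045). Summed over the 80 genes, ribosomal protein RNA was 19250, 17950, 23890 and 17350 CPM in wild-type replicates 2 to 5. It was 13820, 16230, 10660, 17140 and 14620 CPM in zQ175 replicates 2 to 6, all below the wild-type pools by TMM scaling. On the scale of totals the groups overlapped, at 16460 to 20810 and 12290 to 16850. Many of these genes have processed pseudogenes with near-identical sequence, so their counts may be shared with such copies.

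The difference at 1 year was also set against that between R6/2 and wild-type pools at 12 weeks, which share no library with it. Line, age, mice per pool and any batch cannot be told apart between these effects. Their interaction fit also shares 1 estimate of spread per gene over its groups. Of 17115 genes, 555 passed the interaction (3.24%), 320 with a more positive (1.87%) and 235 with a more negative difference in zQ175 at 1 year (1.37%). With upper-quartile scaling the interaction called 494 and 186, and with total counts 242 and 298. At an unadjusted p below 0.05 there were 2930 (17.1%), 1408 more positive (8.23%) and 1522 more negative (8.89%). R6/2 against its own wild type called 5704 of 14952 genes (38.1%), 2848 higher (19%) and 2856 lower (19.1%), and 6893 (46.1%) had an unadjusted p below 0.05, 3383 higher (22.6%) and 3510 lower (23.5%). Across the 13931 genes tested in both, Pearson's r of the log2 fold changes was 0.499 and Spearman's rho 0.428, a description across genes, which are not independent replicates. Of the 2649 of these genes called higher in R6/2, 2206 (83.3%) had a positive fold change at 1 year, against 52.7% of all; of the 2802 called lower, 1927 (68.8%) had a negative one, against 47.3%.

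Progenitor genes had medians of 2.03 at 1 year and 1.67 in R6/2, and 0 of 22 passed the interaction. The errors of single members were wide, so the lack of calls does not show that the effects were alike. Pdgfra had log2 fold changes of 2.67 and -0.23 (interaction 2.74 ± 0.96, adjusted p = 0.128). Bcan had 1.80 and 2.78 (-1.09 ± 0.39, adjusted p = 0.135). Myelin genes differed: the median was -0.28 at 1 year and -1.05 in R6/2. The interaction was passed by 18 of 24 with a less negative difference in zQ175, where 1.87% of all genes had a more positive one. Mog had log2 fold changes of 0.05 and -0.92 (interaction 0.89 ± 0.17, adjusted p = 0.00297). Mobp, at -0.87 and -1.50, did not pass (adjusted p = 0.0732).

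Lipid synthesis also differed. For cholesterol synthesis the medians were 0.26 at 1 year and -0.54 in R6/2. The interaction was passed by 10 of 20 genes with a more positive difference in zQ175, against 1.87% of all genes. Cyp51 had 0.00 and -1.38 (interaction 1.29 ± 0.19, adjusted p = 0.00044), Dhcr7 0.01 and -1.20 (1.12 ± 0.17, adjusted p = 0.00045) and Hmgcs1 0.22 and -0.93 (1.05 ± 0.18, adjusted p = 0.00153). Fa2h had -0.30 and -1.69 (1.29 ± 0.13, adjusted p = 1.16e-05), and Ugt8a -0.25 and -1.61 (1.26 ± 0.18, adjusted p = 0.000248).

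Interferon-stimulated genes had medians of 1.01 at 1 year and 3.19 in R6/2, and 6 of 18 passed with a more negative difference in zQ175, against 1.37% of all genes, among them Ifit1, at 1.69 and 4.96 (interaction -3.37 ± 0.80, adjusted p = 0.0192). Of the genes reported in oligodendrocytes under disease, 7 of 15 passed with a more negative difference, such as C4b (-1.59 ± 0.24, adjusted p = 0.00044). Il33 passed the other way, with -0.88 at 1 year and -2.63 in R6/2 (1.66 ± 0.25, adjusted p = 0.00044). Smtn, near the threshold at 1 year, had -1.22 against -0.21 in R6/2 (-1.12 ± 0.21, adjusted p = 0.00305).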

How the data were processed

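Paired-end RNA-seq libraries (TruSeq RNA v2, polyA RNA) were made from sorted pools, per the labels' protocols. The authors deposited a table of RSEM expected counts, not normalized, for 53801 gene identifiers in 46 columns, all matched to labels; 9.4% of values were not whole. The submitters' processing notes name CASAVA, STAR 2.5.2b and RSEM 1.3.0; they name a human build while the identifiers are mouse, and the mouse build is not given in the sources used here. Symbols and positions came from GENCODE on GRCm38, which matched 53706 identifiers. Whether counting used strand is not recorded, so antisense genes cannot be told apart from genes they overlap; ribosomal protein and other multicopy genes may share reads with copies.

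Expected counts were rounded. Genes were filtered with filterByExpr (minimum count 10, minimum total 15), scaled by TMM and fitted with edgeR 4.0.16 (R 4.3.3) robust quasi-likelihood models, with Benjamini-Hochberg adjustment over all genes at 0.05. Only the groups of each comparison entered its fit; interactions used 4 groups. Library measures were compared by exact permutation tests. Genes were named by rule: those called or of smallest p (up to 12 per direction, mean of at least 1 CPM), fixed lineage genes, and for interactions the largest coefficients; other list members were named after their values were seen. The comparison, the gene lists and their members were chosen with earlier results of these data known. No 2 libraries of a group agreed within sampling noise (chi-square per degree of freedom of at least 37.1). The tests were tried on simulated data. Alternatives were DESeq2 1.42.0, limma 3.58.1 voom with and without sample weights, other scalings, filters and covariates, all 8 groups in one fit, a replicate block and leaving out each pool. Leaving out zQ175 replicate 5 with wild-type replicate 4, and scaling to total counts, were added after seeing the data. Total counts of 23338138 to 35458103 per library leave the spread between pools, not counting error, as the main limit on abundant genes. Some members of the lists are not reported here by name, though they are among the genes counted.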

Additional observations from a re-analysis of the deposited data

Results flagged for a closer look

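In 22 of 170 sets of pools examined, 1 pool lay far from the rest of its group by Dixon's criterion. For independent sets of normally distributed values that happens in about 1 in 20. The sets here share genes and pools and hold mostly unlogged CPM, so no excess can be read from the count. Wild-type replicate 3 stood above its group for Pdgfra (14.7 CPM, the others 0.310 to 2.01), Cspg4 (29.8 CPM), Bmp4 (18.8 CPM), Bcan (102.8 CPM), Serpina3n (55.3 CPM) and Irf9 (8.51 CPM). It stood above the others in the progenitor sum (548.66 CPM, the others 177.44 to 220.53) and below them for Ugt8a (457.8 CPM, the others 573.9 to 592.3). zQ175 replicate 2 stood above its group for Pdgfra (91.5 CPM, the others 4.79 to 19.5), Cspg4 (118.7 CPM), Tcf7l2 (83.1 CPM), Olig2 (408.2 CPM), Gpr17 (208.9 CPM) and Ptprz1 (297.6 CPM). It was also highest in the progenitor sum (2198.8 CPM) and lowest in the mature myelin sum (68780 CPM, the others 76847 to 79473).

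Other pools stood apart for single values. Wild-type replicate 5 was high for Mbp (11380 CPM) and low for Cyp51 (46.7 CPM). zQ175 replicate 4 was high for Tmem47 (41.3 CPM), and replicate 3 for Cav1 (71.7 CPM) and the stress response sum (6557.3 CPM). zQ175 replicate 6 was high in the red blood cell marker sum (338.09 CPM, the others 165.19 to 197.65).

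Genotype effects that differed between 1 year and 12 weeks by the interaction test were largest in size for the following genes, given as the log2 difference. More negative at 1 year were Ehd2 (-2.83), Zbtb7b (-1.58), A330015K06Rik (-1.47), Gm42756 (-1.38), 2410006H16Rik (-1.38) and Rps12 (-1.37). More positive were Zgpat (0.97), Gpr85 (1.07), Map1b (1.16), Luzp2 (1.47), Agmo (1.82) and Ranbp17 (3.18).

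Between zQ175 at 1 year and R6/2 at 12 weeks, the more negative were Tecta (-6.79), Parp14 (-5.67), Klc3 (-4.53), D430019H16Rik (-4.39), Fkbp5 (-4.12) and Plin4 (-3.80). The more positive were Sstr1 (6.94), Ankrd23 (7.12), Adgrg6 (7.29), Pcdhb2 (7.36), Sis (7.46) and Col22a1 (8.21). Adgrg6, Pcdhb2 and Sis had 0 counts in all 1-year wild-type pools, so their coefficients depend on the prior count and are no measured fold. Sstr1 was near the floor as well, with a 1-year mean of 0.029 CPM in wild type. In zQ175 it was at 3.63 ± 5.59 CPM (SD, n = 5). Ankrd23 and Col22a1 did not pass the expression filter of the 1-year fit, so their coefficients also rest on low counts there.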

How the results depend on the processing

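The number of genes called at 1 year (1) was 398 with DESeq2, 6 with voom, 312 with voom and sample weights, 2 with RLE and 3 with upper-quartile scaling. It was 59 with no low-count filter, 3 with at least 1 CPM in 4 libraries, 1718 with all 8 groups and 3 without X, Y and mitochondrial genes. It was 0 without robust fitting, with either covariate, with total counts and without zQ175 replicate 5 and wild-type replicate 4 (975 to 1935 at an unadjusted p below 0.05), and 0 to 233 when 1 pool was left out. The 41 calls of the age interaction were 327 with DESeq2, 104 with sample weights, 20 without the filter, 342 with all 8 groups and 13 with total counts. They were 0 without robust fitting and with the Y-linked covariate (2096 and 1990 unadjusted), and 0 to 353 with 1 pool left out. The 555 calls of the line interaction were 1077 with DESeq2, 854 with all 8 groups and 459 to 785 with 1 pool left out. The cause of these changes was not tested.

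Same-numbered pools did not deviate together (r of -0.0821, -0.0769, -0.177 and 0.0599), so the replicate block pairs pools by number only; it gave 0, 0 and 197 calls in the 3 comparisons. Under the block the log2 fold changes of Mog, Dhcr7 and Cyp51 were -0.0251, -0.00809 and -0.0555.

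Of 1199 values for 50 genes over 24 settings, 996 kept direction and side of the threshold and 45, for 11 genes, changed sign. With the other cell types' markers as covariate, Pdgfra was -0.0618, Cspg4 -0.51, Tcf7l2 -0.10, Nkx2-2 -0.40, Gpr17 -0.27, Ptprz1 -0.12 and Dhcr7 -0.0812. Without zQ175 replicate 5 and wild-type replicate 4, Mog was -0.0112, Nkx2-2 -0.12 and Dhcr7 -0.0800. With total counts Mag was 0.16 and Olig2 0.00804. Mag was 0.004284 with DESeq2, 0.004295 with RLE and 0.005477 without the filter. Nkx2-2 was -0.0253 with voom, -0.0939 with weights and -0.0440 with all 8 groups; Dhcr7 was -0.0573 and -0.0317 in the last pair. Cyp51 was -0.000283 with upper-quartile scaling, -0.0394 with all 8 groups and -0.0186 with the Y-linked covariate. With 1 pool left out, Mog ranged from -0.0111 to 0.14, Mag from -0.0585 to 0.0454, Nkx2-2 from -0.12 to 0.11, Dhcr7 from -0.0843 to 0.13 and Cyp51 from -0.12 to 0.0665. The difference in total counts ranged from -3715000 to 320100.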
